A study of Canis lupus familiaris with 39 samples.

Results

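Antigen presentation genes encode the molecules that display peptides on the surface of cells, and the members described here were chosen by symbol. They comprise CD74, CIITA, B2M, TAP1, TAP2 and TAPBP together with every gene of the dog leukocyte antigen family whose symbol begins with DLA, namely DLA88, DLA-64, DLA-79, DLA-DRA, DLA-DQA1, DLA-DQB1, DLA-DMA, DLA-DMB, DLA-DOA and DLA-DOB. These 16 genes were read by 34 of the 42860 probesets of the array, and 15115 symbols were attached to a probeset with a single symbol. DLAT, which shares the letters but encodes dihydrolipoamide acetyltransferase, was left out with its 2 probesets, as were 2 probesets annotated to more than 1 DLA gene. The dog DRB1 gene carries the symbol HLA-DRB1 in the annotation and therefore fell outside the rule, and its single probeset is given only for orientation.

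The study profiled pathologically normal organs with Affymetrix Canine Version 2.0 arrays. All came from the same 4 dogs, beagles and mixed breeds of both sexes and of ages from pups to adults, each of which gave all 10 organs, so that the 4 arrays of a tissue are separate dogs while the tissues share their dogs. The 39 arrays fall into lymph node, spleen, lung, jejunum, liver, kidney, heart, skeletal muscle, brain and pancreas, with 4 arrays for each tissue and 3 for pancreas. Lymph nodes were peripheral nodes and the brain samples were cerebrum. The labels number the arrays of each tissue but say nothing of whether equal numbers are equal dogs, so the dog could not be paired across tissues, and p-values measure the spread between these arrays. A probeset is a group of short probes for a transcript, and its signal is given on the log2 scale, so that a difference of 1 is a factor of 2. Array medians lay between 3.95 and 4.11, and a signal near 4 is therefore that of most probesets. Each tissue label was borne out by its markers. For example, SNAP25 was 579-fold higher in brain and ALB 291-fold higher in liver than the mean of the other 9 tissues. By the same measure SFTPC was 670-fold higher in lung and CCL21 26.8-fold higher in lymph node. Some arrays also carried markers of another organ. The mean of the pancreas markers reached 9.27 in skeletal muscle, against 13.52 to 13.58 in pancreas. That of the skeletal muscle markers reached 8.41 in brain, and that of the liver markers 8.12 in lung. The reason was not tested.

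Nearly every nucleated cell presents peptides from its own proteins on class I molecules, each a heavy chain paired with beta-2-microglobulin. The peptides are cut by the proteasome, pumped into the endoplasmic reticulum by the TAP transporter and loaded with the help of tapasin. Class II molecules are pairs of an alpha and a beta chain, are found mainly on B cells, macrophages and dendritic cells, and present peptides from ingested material. The invariant chain CD74 guards their groove until the DM molecule exchanges its remnant for a peptide, DO restrains DM, and CIITA is the master activator of the class II genes. A whole organ mixes such cells with its own parenchyma, and in bulk RNA fewer cells of a type and less RNA per cell cannot be told apart.

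The first question was in which organs the pathway is high. Of the 34 member probesets, 32 differed among the 10 tissues in limma's moderated F test at a false discovery rate of 0.001, against 54.6% of all probesets. The exceptions were the dimmer of the probesets for TAPBP (adjusted p = 0.04) and the dimmer of those for DLA88 (adjusted p = 0.185). Each tissue was then set against the mean of the other 9 tissue means. In lymph node 28 member probesets were higher, where the background was 9.95% of all probesets, and 0 were lower, where it was 6.93%. In spleen 21 were higher against a background of 5.38% and 0 were lower against 4.83%, and in lung 19 were higher against 7.26% and 0 were lower against 4.22%. At an unadjusted p below 0.05, the probesets lower in limma's contrast numbered 1 in lymph node, 0 in spleen and 4 in lung.

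Jejunum, liver and kidney took a middle place. In jejunum 7 member probesets were higher, with a background of 6.12%, and 1 was lower, with 3.85%. In liver 0 were higher (7 at an unadjusted p below 0.05 in limma) beside 6.72% of all probesets, and 1 was lower beside 6.15%. In kidney 0 were higher (2 at an unadjusted p below 0.05 in limma) beside 7.41% and 5 were lower beside 3.94%. The member median of the difference was 0.65 in jejunum, 0.06 in liver and -0.78 in kidney, against -0.04 for all probesets in jejunum. Leaving out jejunum 2 left 4 higher probesets in jejunum, leaving out kidney 2, 3 or 4 left 3 lower ones in kidney, and leaving out spleen 3 gave 8 in kidney.

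Heart, skeletal muscle, brain and pancreas stood at the low end. Lower signals were called for 13 of the 34 probesets in heart (6.55% of all probesets), 20 in skeletal muscle (8.14%), 20 in brain (7.74%) and 20 in pancreas (11.1%). Higher signals were called for 1 probeset in heart (7.47%), 3 in skeletal muscle (7.06%), all of them for DLA-79, 0 in brain (11.2%; also 0 at an unadjusted p below 0.05 in limma) and 1 in pancreas (13.4%). The member medians were -1.20 in heart, -1.51 in skeletal muscle, -1.58 in brain and -1.96 in pancreas, against 2.84 in lymph node, 2.04 in spleen and 1.33 in lung. Scaling the arrays on 11 housekeeping genes lowered the count to 5 in heart, 10 in skeletal muscle and 8 in pancreas, and leaving out heart 3 lowered it to 6 in heart.

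**Figure D1:**
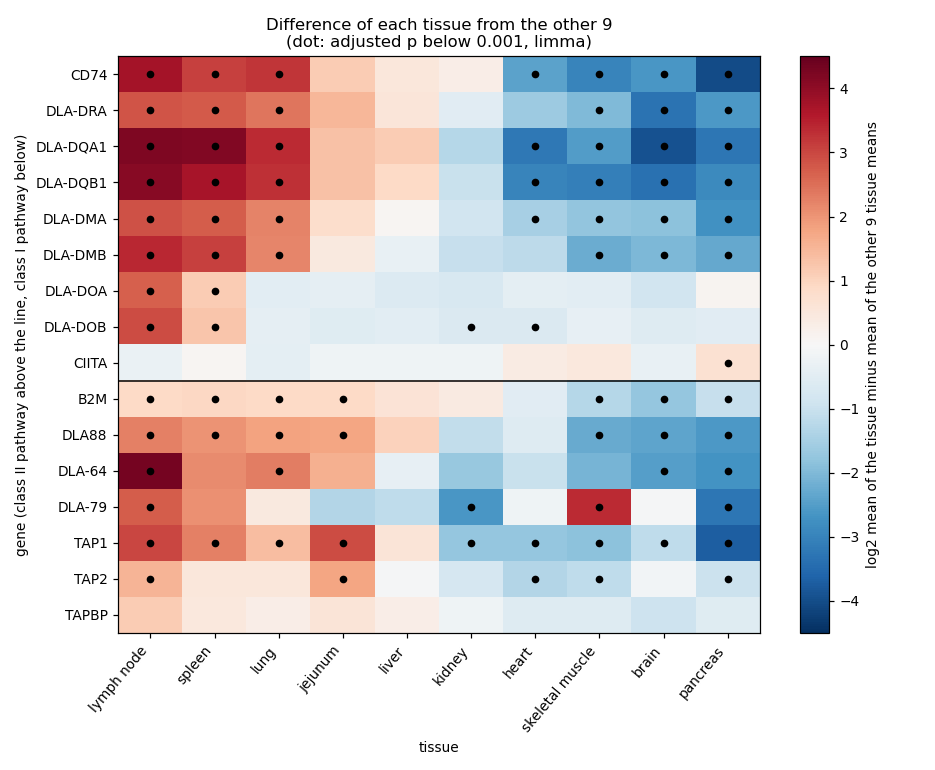
Differences in log2 signal between each tissue (columns) and the mean of the other 9 tissue means for the probeset with the highest mean of each of the 16 genes (rows), with a dot where limma's adjusted p is below 0.001. CD74, the class II chains and DM form a block of higher values in lymph node, spleen and lung, jejunum carries dots only for B2M, DLA88, TAP1 and TAP2, and DLA-79 is the single gene with a called higher value in skeletal muscle.

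Where a gene had several probesets, the brightest by its mean of all 39 arrays stands for it below. CD74, the invariant chain, had signals of 11.75, 12.35, 12.57 and 12.68 in lymph node, of 12.07, 11.97, 10.95 and 11.86 in spleen, and of 12.01, 11.45, 11.70 and 12.26 in lung. Jejunum (9.68, 10.19, 9.20 and 10.88) and liver (9.80, 9.20, 8.69 and 9.94) lay below all of these, the highest jejunum array just under spleen 3. Kidney arrays read 9.38, 6.86, 10.57 and 10.05, so that kidney 2 was far below the other kidneys. The remaining tissues were lower still, with 7.25, 6.96, 6.23 and 6.69 in heart, 6.42, 6.40, 6.44 and 5.84 in skeletal muscle, 8.62, 4.46, 6.39 and 6.89 in brain and 5.42, 5.48 and 5.14 in pancreas. Apart from kidney 2, which lay within their range, every array of the other 6 tissues was above every array of these 4. CD74 was 13.6-fold higher in lymph node (log2 difference 3.76 ± 0.45, limma standard error, adjusted p = 3.96e-08), 9.35-fold higher in lung (adjusted p = 9.47e-07) and 8.39-fold higher in spleen (adjusted p = 2.45e-06) than the other 9 tissues, and 16.1-fold lower in pancreas (adjusted p = 1.33e-07).

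DLA-DRA, the class II alpha chain of DR, was highest in the same 3 tissues. Its signal was 12.83, 12.62, 12.92 and 12.51 in lymph node, 12.70, 12.69, 12.63 and 12.57 in spleen and 12.63, 11.81, 12.57 and 12.36 in lung. Its lowest mean was in brain, with 8.87, 5.06, 7.20 and 7.66, a level 9.89-fold below the other 9 tissues (adjusted p = 7.10e-08). Among the skeletal muscle arrays, number 1 read 10.19 while the others read 8.09, 7.83 and 7.45. The other DLA-DRA probeset had no such gap, with skeletal muscle arrays between 5.81 and 6.53. The mean signal of 8 macrophage and monocyte markers was highest in skeletal muscle 1, at 5.73 against 4.62, 4.43 and 4.28 in the other muscle arrays. Its part in the result was not tested. HLA-DRB1, the partner chain outside the rule, averaged 12.42 in lymph node, 12.20 in spleen, 12.10 in lung and 7.15 in brain.

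DLA-DQA1 spanned the widest range of tissue means of any member probeset. DLA-DQA1 averaged 11.56 ± 0.15 in lymph node, 11.53 ± 0.22 in spleen, 10.80 ± 0.41 in lung and 4.27 ± 1.40 in brain (SD, n = 4 each), and its range of 7.29 corresponds to a factor of 156. DLA-DQB1 averaged 11.23 ± 0.23 in lymph node, 10.86 ± 0.65 in spleen, 10.49 ± 0.56 in lung and 4.49 ± 0.78 in brain (SD, n = 4 each). Both were higher in lymph node than in the other 9 tissues, DLA-DQA1 by 18.2-fold (adjusted p = 1.98e-09) and DLA-DQB1 by 17.3-fold (adjusted p = 4.98e-11). The peptide exchange factor DM behaved alike, with DLA-DMA 7.28-fold (adjusted p = 7.80e-09) and DLA-DMB 10.4-fold (adjusted p = 9.64e-10) higher in lymph node. DLA-DMB was nearly constant between lymph nodes, at 9.27, 9.18, 9.17 and 9.18, against 9.28, 8.90, 8.12 and 9.38 in spleen.

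Spleen 3 read lowest of the spleens for CD74, DLA-DQA1, DLA-DQB1 and DLA-DMB, and far lower for DLA-64. The mean signal of 8 T cell markers was also lowest in that array, at 5.59 against 7.25 to 7.29 in the other spleens. The means of B cell (4.66), macrophage and monocyte (7.99) and dendritic cell markers (4.45) were likewise lowest in spleen 3. The endothelial marker mean, at 7.01, was not. The part of cell composition was not tested. Without spleen 3, 23 rather than 21 member probesets were higher in spleen.

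**Figure D2:**
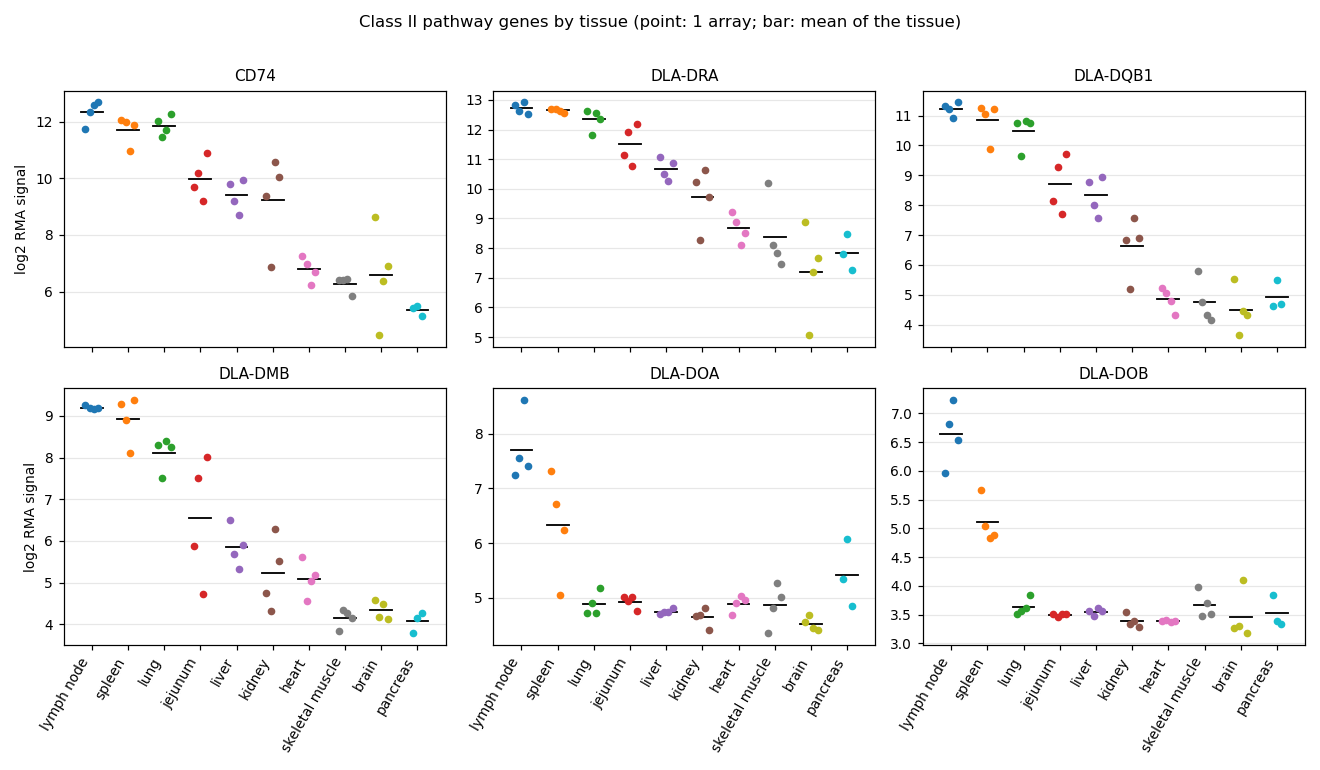
Log2 RMA signal of 6 class II pathway genes in each of the 39 arrays, by tissue, with a bar at the mean of each tissue. CD74, DLA-DRA, DLA-DQB1 and DLA-DMB are highest in lymph node, spleen and lung and lie low in skeletal muscle, brain and pancreas, whereas DLA-DOA and DLA-DOB stand above 5 in lymph node and, apart from 2 arrays of DLA-DOB at 4.84 and 4.89, in spleen, and lie between 3.18 and 6.08 elsewhere.

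The DO genes broke from this order. DLA-DOB, the beta chain of the DM inhibitor, read 5.96, 6.81, 7.23 and 6.54 in lymph node and 5.67, 5.05, 4.84 and 4.89 in spleen, whereas its means in the other 8 tissues lay between 3.39 and 3.67. Every lymph node array was above every other array of the series. The difference from the other 9 tissues was 2.94 ± 0.14 (7.69-fold, adjusted p = 2.09e-16), and lymph node exceeded spleen by 2.88-fold (adjusted p = 7.67e-07). In lung, where CD74, DLA-DRA and the DQ and DM genes were high, DLA-DOB read 3.52, 3.57, 3.61 and 3.84, which was 2.78-fold below spleen (adjusted p = 8.15e-07).

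DLA-DOA, the alpha chain, followed its partner. Its brightest probeset over all arrays read 7.24, 7.55, 8.62 and 7.42 in lymph node, 7.32, 6.71, 5.04 and 6.24 in spleen and 4.71, 4.90, 4.72 and 5.18 in lung. Another probeset had a lower mean over the 39 arrays and a wider range, with means of 9.11 in lymph node, 7.59 in spleen and 4.02 in lung. By that probeset lymph node was 30.6-fold above the other 9 tissues (adjusted p = 5.41e-17) and lung 11.9-fold below spleen (adjusted p = 1.31e-10).

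Directly between both lymphoid organs, 4 member probesets were higher in lymph node (1.65% of all probesets) and 0 were lower (2.26%; 2 at an unadjusted p below 0.05 in limma). Those higher were the probesets for DLA-DOB, the second for DLA-DOA, 1 for CIITA and 1 for TAP1. Between lung and spleen, 0 were higher in lung (3.21%; also 0 at an unadjusted p below 0.05 in limma) and 3 were lower (1.95%), all for DLA-DOA or DLA-DOB. Scaling on housekeeping genes left 0 called between lymph node and spleen and 1 between lung and spleen, and leaving out lymph node 1, lymph node 3 or spleen 3 left 2 between lymph node and spleen.

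Like the DO genes, markers of both B cells and T cells were called higher in lymph node and spleen. Of all probesets, 9.95% were called higher in lymph node, 5.38% in spleen, 7.26% in lung and 6.72% in liver. In jejunum 3.85% were called lower. MS4A1, which encodes the B cell antigen CD20, averaged 9.67 in lymph node, 7.63 in spleen and 3.72 in lung, and CD79B, a part of the B cell receptor, averaged 8.56, 6.36 and 3.84 in the same tissues. Of 6 measured B cell markers, 5 were called higher in lymph node and 2 in spleen. Of 8 T cell markers, 8 were called higher in lymph node and 6 in spleen, with median differences of 4.43 in lymph node, 2.46 in spleen and -0.23 in lung. Macrophage markers had another distribution, with 6 of 8 called higher in spleen, 6 in liver, 4 in lymph node and 4 in lung. Of 7 dendritic cell markers, 5 were higher in lymph node, 3 in spleen and 1 in lung, and 2 were lower in jejunum. CD163, a scavenger receptor of macrophages, averaged 9.51 in spleen, 8.71 in liver, 7.62 in lung and 5.99 in lymph node. The part of these cell types in the member signals was not tested.

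CIITA had probesets that disagreed. The brighter varied little, with tissue means between 5.02 in lung and 6.05 in pancreas, and was called only in pancreas (1.63-fold higher, adjusted p = 5.66e-05), a call lost without pancreas 3 (adjusted p = 0.00534). The dimmer read 5.43, 5.74, 6.35 and 5.44 in lymph node and at most 5.08 in every other array. It was 3.01-fold higher in lymph node than in the other 9 tissues (adjusted p = 1.19e-10) and 2.16-fold higher than in spleen (adjusted p = 8.64e-05). Over the 10 tissue means both probesets correlated at r = -0.262, and which of them reports CIITA cannot be settled from these values. In pancreas 13.4% of all probesets were called higher. Of the fixed lists, 1 of 6 B cell markers (PAX5 at 6.01) and 3 of 6 class I-like genes (among them CD1A6 at 5.33) were called higher there. The count was 0 of 8 T cell markers, 0 of 6 costimulation genes and 0 of 10 interferon response genes. A link to the CIITA call was not tested.

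Turning to class I, B2M, which encodes beta-2-microglobulin, was bright in all organs. Its mean was 13.30 ± 0.14 in spleen, 13.29 ± 0.16 in lymph node, 13.28 ± 0.21 in lung and 13.27 ± 0.03 in jejunum (SD, n = 4 each), and these 4 tissues could not be separated. It was lowest in brain, with 11.58, 10.90, 10.52 and 10.62, which is 3.36-fold below the other 9 tissues (adjusted p = 4.88e-10). Its whole range of tissue means was 2.40, or a factor of 5.27, against a factor of 128 for CD74. The other B2M probeset, which had the same pattern over tissues (r = 0.998), spanned 3.26, or a factor of 9.57. Scaling on housekeeping genes turned the difference in pancreas, which was -1.05 in the values as deposited, to 0.17 and removed the calls of higher B2M in lymph node, spleen, lung and jejunum and that of lower B2M in skeletal muscle.

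DLA88, the classical class I heavy chain of the dog, averaged 12.79 in lymph node, 12.57 in spleen, 12.38 in lung and 12.33 in jejunum by its brighter probeset, and 8.69 in skeletal muscle, 8.61 in brain and 8.41 in pancreas. It was 4.83-fold higher in lymph node (adjusted p = 2.02e-06) and 6.03-fold lower in pancreas (adjusted p = 1.77e-06) than in the other 9 tissues. The dimmer DLA88 probeset gave neither call in limma (log2 difference 2.11, adjusted p = 0.192 in lymph node, and -3.22, adjusted p = 0.0513 in pancreas). Nor did it give the calls of the brighter one in spleen, lung, jejunum, skeletal muscle or brain. DLA-64, another class I gene, read 9.55, 8.97, 10.57 and 9.73 in lymph node and 8.94, 8.41, 5.03 and 8.65 in spleen. In jejunum it read 7.71, 7.83, 5.62 and 7.92, in brain at most 3.74 and in pancreas at most 3.49. It was 19.7-fold higher in lymph node (adjusted p = 4.30e-08), the largest fold of a standing probeset in any of the 10 contrasts, whereas its call in lung (4.92-fold, adjusted p = 0.000814) was lost in 21 of 39 fits that each left out 1 array. Class I heavy chain genes are close relatives, and signal shared between their probes was not tested.

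TAP1 and TAP2 encode the subunits of the peptide transporter, and both were high in jejunum. TAP1 read 10.82, 10.35, 11.01 and 10.50 in jejunum, 10.63, 10.63, 10.60 and 11.12 in lymph node and 10.01, 10.46, 9.73 and 10.15 in spleen. It read 6.90, 5.91, 6.63 and 6.39 in kidney and 4.22, 5.30 and 4.58 in pancreas, where every array was below every other array of the series. Relative to the other 9 tissues TAP1 was 7.61-fold higher in jejunum (adjusted p = 7.45e-14), 8.08-fold higher in lymph node (adjusted p = 6.18e-14) and 13.0-fold lower in pancreas (adjusted p = 7.95e-15). TAP2 was highest in jejunum, at 9.15, 9.15, 9.31 and 9.30, against 9.23, 9.12, 8.60 and 9.07 in lymph node, and in jejunum it was 3.47-fold above the other 9 tissues (adjusted p = 2.55e-09). That call was lost after scaling on housekeeping genes (log2 difference 1.19, adjusted p = 0.00194), and 1 of the other TAP2 probesets gave -0.30 in jejunum (adjusted p = 0.192).

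Neither transporter gene was uniform in its probesets. For TAP2, 1 of the other probesets correlated at r = -0.297 with the brightest one over the 10 tissue means and was highest in heart (mean 7.69, log2 difference 0.70, adjusted p = 0.000615), where the brightest probeset was 2.51-fold lower (adjusted p = 6.76e-07). For TAP1 a dim probeset correlated at r = 0.792 and had its highest mean of 6.64 in lymph node. It did not give the TAP1 calls in pancreas (log2 difference -0.19, adjusted p = 0.582 in limma) or jejunum (0.72, adjusted p = 0.027). Nor did it give the call in lung (0.18, adjusted p = 0.563). TAPBP, which encodes tapasin, was dim, with means between 4.09 in brain and 5.96 in lymph node, and was called in none of the 10 contrasts by either of its probesets. In pancreas TAP2 was 1.94-fold lower (adjusted p = 0.000342), with a difference of 0.27 instead of -0.96 after scaling on housekeeping genes.

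**Figure D3:**
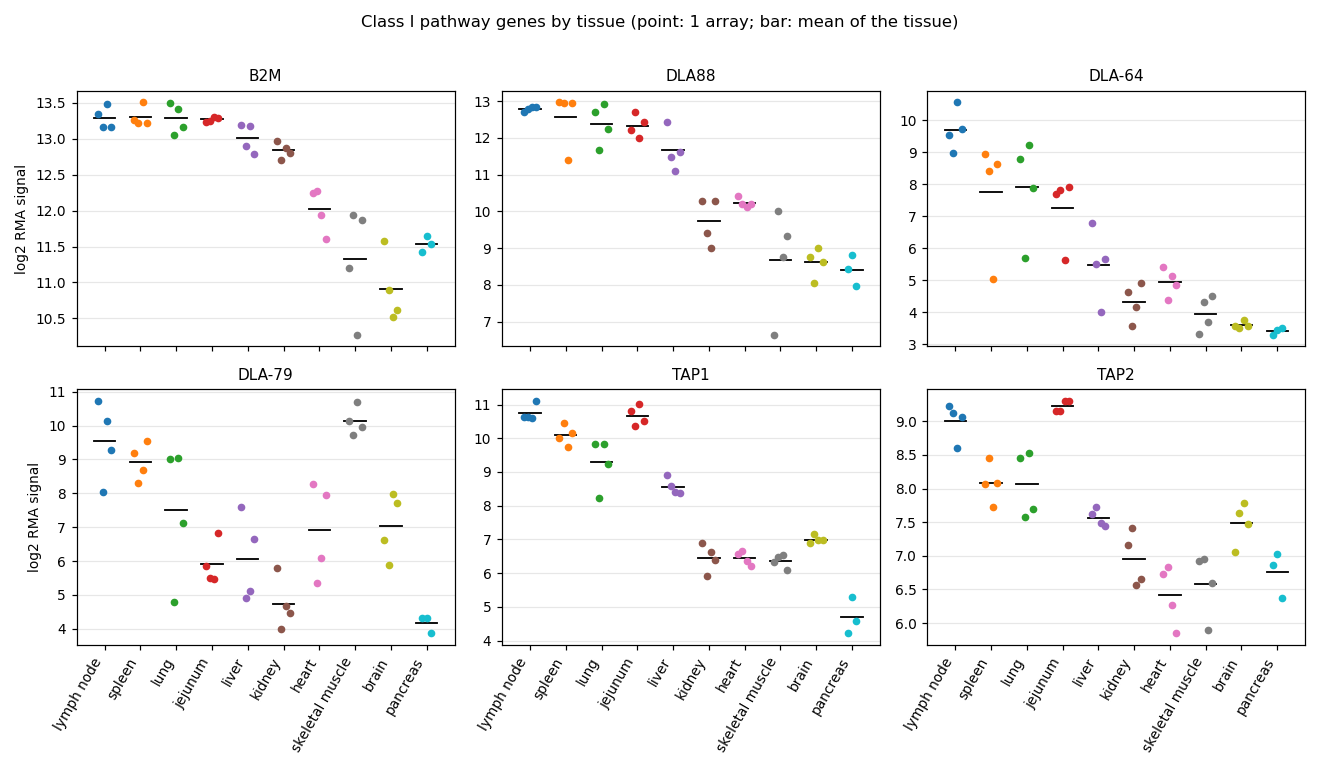
Log2 RMA signal of 6 class I pathway genes in each of the 39 arrays, by tissue, with a bar at the mean of each tissue. Jejunum arrays of TAP1 (10.35 to 11.01) and TAP2 (9.15 to 9.31) reach the level of lymph node, and DLA-79 has its highest mean, 10.13, in skeletal muscle.

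In jejunum the calls fell on some class I genes, and whether class I and class II differ there was not tested. The genes higher in jejunum than in the other 9 tissues were B2M (1.84-fold, adjusted p = 0.00019), DLA88 (3.41-fold, adjusted p = 0.000129), TAP1 and TAP2, all of class I. The call for B2M was lost when any 1 jejunum array was left out (adjusted p from 0.00126 to 0.00158), that for DLA88 without jejunum 2 or jejunum 4, and scaling on housekeeping genes left 2 of the 7 higher probesets and, of the standing ones, only that of TAP1. CD74 (log2 difference 1.15, adjusted p = 0.0642), DLA-DRA (1.48, adjusted p = 0.0082) and DLA-DMB (0.43, adjusted p = 0.417) did not pass, although the differences of CD74 and DLA-DRA were larger than that of B2M (0.88). The class I genes DLA-64 (1.60, adjusted p = 0.0221), DLA-79 (-1.31, adjusted p = 0.0978) and TAPBP (0.58, adjusted p = 0.135) did not pass either.

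Direct comparisons of jejunum with single tissues were added after these values had been seen. Against lymph node, 15 of the 34 probesets were lower in jejunum (4.88% of all probesets) and 0 were higher (4.92%; also 0 at an unadjusted p below 0.05 in limma). By standing probeset the lower genes were DLA-DMA, DLA-DMB, DLA-DOA, DLA-DOB, DLA-DQA1, DLA-DQB1 and the class I gene DLA-79 (-3.64, adjusted p = 0.000386), whereas CD74 (-2.35, adjusted p = 0.00346) and DLA-DRA (-1.22, adjusted p = 0.132) missed the threshold. Against spleen, 9 were lower (3.88%) and 1, for TAP2, was higher (4.69%), with jejunum at 9.23 and spleen at 8.09 (adjusted p = 0.000719). Against liver, 4 were higher (5.43%), all for TAP1 or TAP2, and 0 were lower (4.98%; also 0 at an unadjusted p below 0.05 in limma). TAP1 was 4.29-fold higher in jejunum than in liver (adjusted p = 8.29e-08) and 18.5-fold higher than in kidney (adjusted p = 1.09e-14). Scaling on housekeeping genes left 0 called between jejunum and liver, while the 10 between jejunum and spleen became 5 without jejunum 1, jejunum 3 or spleen 4 and 6 without spleen 1.

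The array means of 6 class II pathway genes (CD74, DLA-DRA, DLA-DQA1, DLA-DQB1, DLA-DMA and DLA-DMB) and of 5 class I pathway genes (B2M, DLA88, DLA-64, TAP1 and TAP2) are given as a description. CIITA, DLA-DOA, DLA-DOB, TAPBP and DLA-79 were left out of them, and DLA-79 averaged 5.91 in jejunum, below its mean in most tissues. The class II mean was 11.11 in lymph node, 10.86 in spleen, 10.44 in lung, 8.91 in jejunum and 8.37 in liver, and ended at 5.27 in pancreas. The class I mean was 11.11 in lymph node, 10.55 in jejunum, 10.36 in spleen, 10.18 in lung and 9.26 in liver, and ended at 6.96 in pancreas. For class I, the jejunum arrays (10.25 to 10.69) overlapped those of spleen, which read 10.65, 10.70, 9.48 and 10.61, and those of lung (9.24 to 10.79), so that the order of these 3 tissues is not settled. For class II, every jejunum array but the highest, at 9.84, was below every array of lymph node, spleen and lung, the lowest of which was lung at 9.83.

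The class II mean of 6 genes also differed more between jejunum arrays than the class I mean of 5 genes. Single genes of both classes varied widely in this respect. By standing probeset, the SD in jejunum ran from 0.03 (DLA-DOB) to 1.51 (DLA-DMB) in class II. In class I it ran from 0.03 (B2M) to 1.10 (DLA-64). The class II mean read 8.45, 9.55, 7.79 and 9.84 in the 4 jejunum arrays, while the class I mean read 10.62, 10.66, 10.25 and 10.69. DLA-DMB, for example, read 5.89, 7.52, 4.74 and 8.02, high in arrays 2 and 4. The mean macrophage marker signal in the same arrays was 5.03, 5.37, 4.81 and 4.99. The mean dendritic cell marker signal was 4.20, 3.83, 3.92 and 3.79, near the array medians of 3.95 to 4.11. The part of these cells in the spread between jejunum arrays was not tested. Similar spreads were seen in brain, where the class II mean read 6.69, 4.31, 5.13 and 5.39 and the class I mean 7.57, 7.45, 7.60 and 7.45, and in kidney, where kidney 2 read 5.78 and the others 7.30, 8.33 and 7.68 for class II. In brain 1, which was highest for class II, the macrophage marker mean was 5.40 against 4.83, 4.87 and 4.90 in the other brains. The part of that difference was not tested.

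**Figure D4:**
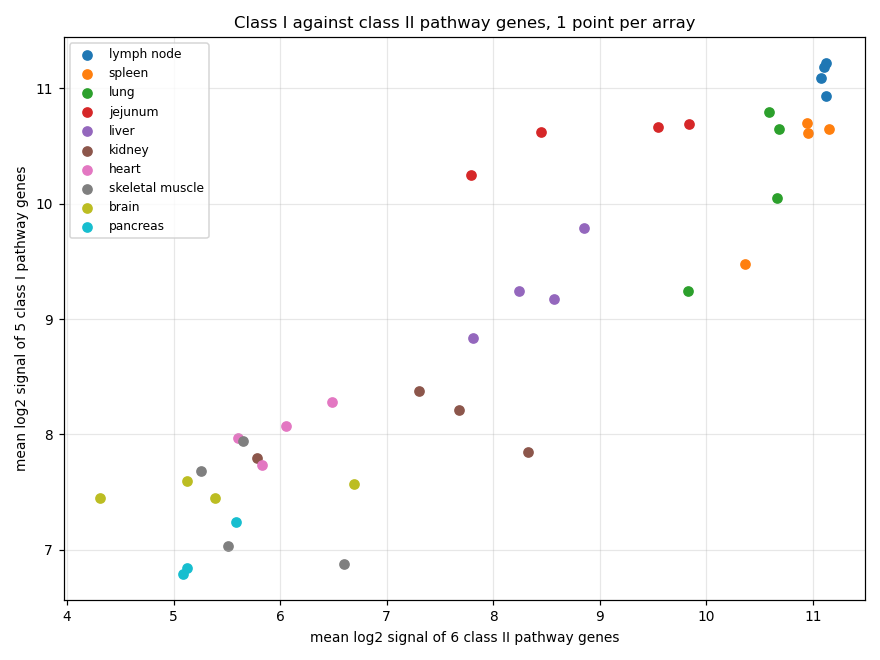
Mean log2 signal of 5 class I pathway genes (vertical axis) against that of 6 class II pathway genes (horizontal axis), with a point for each of the 39 arrays coloured by tissue. Jejunum arrays spread from 7.79 to 9.84 along the class II axis at class I values of 10.25 to 10.69, near those of spleen and lung.

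DLA-79 did not share the order of the other members. This class I gene neighbours none of the other DLA genes in the RefSeq annotation. It read 10.14, 9.72, 10.69 and 9.96 in skeletal muscle, 10.74, 8.04, 10.13 and 9.29 in lymph node and 9.20, 8.30, 8.69 and 9.53 in spleen. In pancreas it read 4.33, 4.33 and 3.87. Skeletal muscle was 10.3-fold above the other 9 tissues (log2 difference 3.37 ± 0.56, adjusted p = 1.39e-05), and B2M, its partner chain, was 2.44-fold below them in the same tissue (adjusted p = 4.03e-07), a call lost after scaling on housekeeping genes (log2 difference -0.71, adjusted p = 0.0593). The other probesets of DLA-79 were also higher in muscle, by 2.29 (adjusted p = 0.000178) and 1.05 (adjusted p = 0.000945) on the log2 scale, although muscle 1 read 5.17 on 1 of them while muscles 2 to 4 read 8.57, 8.86 and 8.38. Leaving out muscle 3 or muscle 4 left 1 of the 3 calls. Heart, the other striated muscle, read 8.28, 5.34, 6.10 and 7.94, and the difference of 3.22 between skeletal muscle and heart missed the threshold (adjusted p = 0.0032).

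Some DLA genes vary strongly between dogs, so the array number was tested as a term beside tissue. The labels do not tie a number to a dog, so this term cannot decide whether dogs differ. None of the 34 member probesets was called (0 in limma at a false discovery rate of 0.001, 6 at an unadjusted p below 0.05), with 0.119% of all probesets called. Without the pancreas arrays, 8 lay at an unadjusted p below 0.05 in limma. DLA-79 had an adjusted p of 0.0276 for this term, and of 0.0194 without the pancreas arrays. Its arrays of number 2 lay below their tissue mean in 9 of 10 tissues, by 1.02 on average, for example 4.78 in lung 2 against 9.02, 9.05 and 7.13 in lung 1, 3 and 4. The dim TAPBP probeset had the lowest adjusted p of a member, 0.0123.

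The dimmer DLA88 probeset varied most within tissues. It read 2.80 in spleen 1 against 12.22, 11.60 and 12.18 in the other spleens, and 3.05 in heart 3 against 8.46, 11.28 and 11.82 in the other hearts. In brain it read 5.94, 10.47, 10.29 and 9.88, with number 1 again the lowest. Arrays of number 1 were below their tissue mean in 10 of 10 tissues, on average by 1.91, and arrays of number 4 were above it in 9 of 9, on average by 1.27, while the term had an adjusted p of 0.0597. The brighter DLA88 probeset read 12.97 in spleen 1 and 10.12 in heart 3, with mean deviations of 0.02 for number 1 and 0.17 for number 4.

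**Figure D5:**
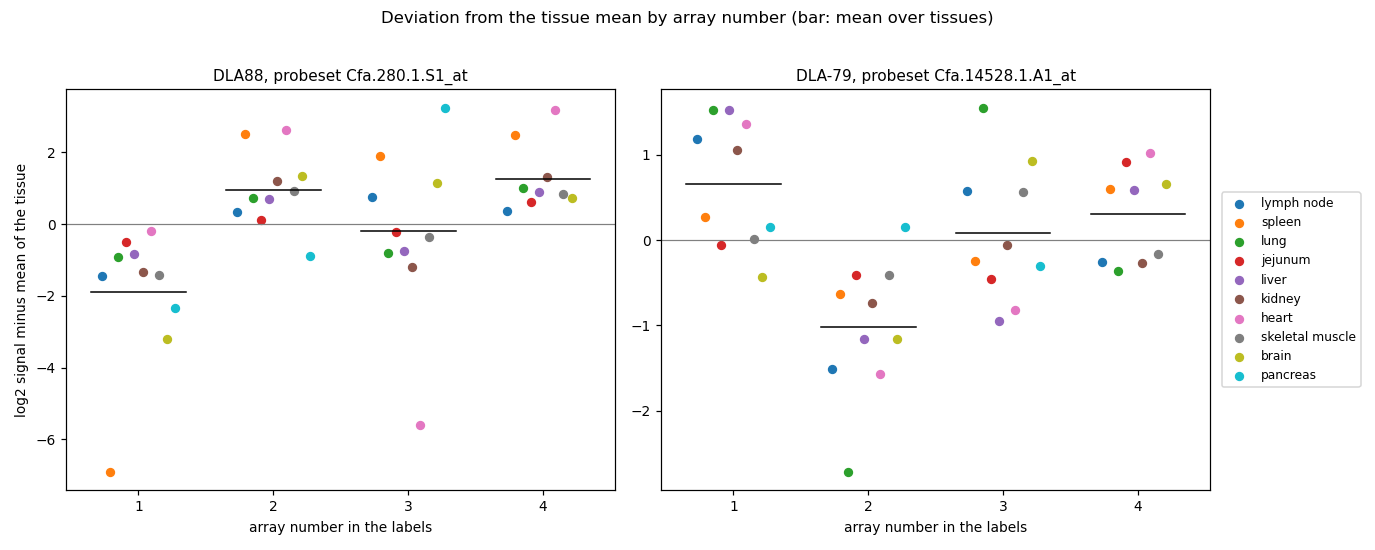
Log2 signal minus the mean of the tissue (vertical axis) for each array, grouped by the array number in the labels (horizontal axis), for the dimmer probeset of DLA88 (left) and the brightest of DLA-79 (right), with a bar at the mean over tissues and colours for tissue. For DLA88 all 10 arrays of number 1 lie below 0 and all 9 of number 4 above it, and for DLA-79 9 of the 10 arrays of number 2 lie below 0.

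Pairs of tissues were also compared directly. Over the 45 pairs of tissues, 600 of 1530 member tests (39.2%) were called, against 14.1% over all probesets. Between tissues adjacent in the order of a gene, which lie close by the sorting itself, 4 of 144 steps were called for the standing probesets, and the arrays overlapped in 130. The called steps were those of DLA-DOB from lymph node to spleen and from spleen to skeletal muscle, and those of TAP1 from liver to brain (1.57, adjusted p = 7.83e-06) and from skeletal muscle to pancreas (1.66, adjusted p = 1.62e-05). Some steps that missed the threshold were larger, such as that of CD74 from kidney to heart (2.43, adjusted p = 0.00224) and that of DLA-DQA1 from liver to kidney (2.21, adjusted p = 0.00482), where the arrays did not overlap. Between brain and heart, B2M was 2.16-fold lower in brain (adjusted p = 0.000292) and TAP2, by its brightest probeset, was 2.10-fold higher in brain (adjusted p = 0.000933). Another TAP2 probeset had the reverse order, with means of 6.66 in brain and 7.69 in heart, and the remaining one averaged 6.03 and 5.27. Scaling on housekeeping genes shifted brain by -0.46 and heart by 0.32, and its effect on these differences is not given.

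Other genes of the pathway were read from fixed lists. Of all probesets, 9.95% were called higher in lymph node, 6.12% in jejunum, 5.38% in spleen and 7.26% in lung. Lower calls made up 7.74% in brain and 8.14% in skeletal muscle. Of 13 genes of class I processing and loading, 8 were higher in lymph node, 6 in jejunum, 3 in spleen and 3 in lung, while 6 were lower in brain and 7 in skeletal muscle. The immunoproteasome subunits, which cut peptides for class I, were among them. PSMB9 averaged 11.85 in jejunum, 11.48 in lymph node, 11.35 in spleen and 6.44 in pancreas, PSMB8 averaged 10.00, 10.05, 9.59 and 3.84 in the same tissues, and PSMB10 averaged 9.17, 8.83, 7.84 and 8.78. PSMB8 and PSMB9 lie interleaved with TAP2 and TAP1 in the RefSeq annotation. The activator subunits PSME1 and PSME2 and the interferon-responsive factor IRF1 were the other genes called higher in jejunum, with IRF1 at 7.79 there, 7.99 in lymph node and 4.17 in brain. NLRC5, the activator of class I genes, was called in lymph node alone, at 5.93, with 4.56 in jejunum. The general chaperones CALR and CANX did not pass in lymph node or in jejunum, and both were lower in skeletal muscle.

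Of 13 measured genes of class II processing and regulation, 6 were higher in lymph node, 5 in spleen and 5 in kidney. The shares of all probesets called higher there were 9.95%, 5.38% and 7.41%. Lower were 8 of the 13 in pancreas (11.1% of all probesets) and 7 in brain (7.74%). CTSS, the protease that trims the invariant chain, averaged 11.82 in lymph node, 12.16 in spleen and 8.13 in heart. RFX5, a factor that binds class II promoters, averaged 9.37 in lymph node, 8.76 in spleen and 5.20 in pancreas. The genes called higher in kidney included the lysosomal proteases LGMN (11.94), CTSB (12.46) and CTSH (11.89). Of 6 costimulation genes, 5 were higher in lymph node, among them CD80 at 7.75 and CD40 at 7.31. Of 6 measured class I-like genes, 1 was called in lymph node, AZGP1, which was lower there (log2 difference -1.91, adjusted p = 3.72e-11). Lower calls in lymph node made up 6.93% of all probesets. FCGRT, the Fc receptor that also pairs with B2M, was 4.32-fold higher in kidney (mean 10.56, adjusted p = 3.08e-08) and 2.42-fold higher in jejunum (mean 9.81, adjusted p = 0.000158).

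Some markers of T cells and of interferon response were also called in jejunum, where 6.12% of all probesets were called higher. That share was 9.95% in lymph node, 6.72% in liver, 5.38% in spleen and 7.26% in lung. Of the 8 T cell markers, 4 were higher in jejunum, where CD3D, which belongs to the T cell receptor complex, averaged 8.54 against 10.62 in lymph node and 4.15 in liver. The mean T cell marker signal was 6.51, 5.91, 5.57 and 6.77 in the jejunum arrays. Of 10 interferon response genes, 5 were higher in lymph node, 4 in liver, 3 in spleen and 3 in jejunum, and 1, MX1, was lower in jejunum (log2 difference -1.29, adjusted p = 0.000186). ISG15 averaged 9.73 in jejunum and 8.98 in liver. CXCL10, a chemokine induced by interferon, was 48.4-fold higher in lymph node (mean 10.38, adjusted p = 1.86e-10) and averaged 6.38 in jejunum, while the antiviral gene OAS1 was 2.67-fold higher in jejunum (mean 7.94, adjusted p = 0.000424) and averaged 6.70 in lymph node. Endothelial markers were called higher mainly in lung, 6 of 8, where PECAM1 averaged 10.77. The part of these cells and of interferon in the class I signals was not tested.

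Among genes outside the rule, the pattern most like CD74 over the 10 tissue means was that of HLA-DRB1 (Pearson's r = 0.978). This is the dog DRB1 gene, a class II gene left out only by its symbol. Next came CCNL2 (0.967), CPNE1 (0.966), SETD2 (0.959), CTSS (0.957), MYH9 (0.956), MYD88 (0.954) and SRSF2 (0.953), out of 5121 genes with a range of at least 2. For B2M the most alike of 8599 genes with a range of at least 1 were ANXA3 (0.948), HLA-DRB1 (0.941), IRF2 (0.940), ROCK1 (0.938), HNRNPF (0.937), STXBP2 (0.937), MYH9 (0.934) and PPP4C (0.927). These correlations describe 10 tissue means and were chosen as the highest among many. Among the members CD74 correlated at 0.977 with DLA-DMA, 0.973 with DLA-DQB1 and 0.967 with DLA-DRA. It correlated at 0.929 with DLA88, 0.774 with TAP2, 0.622 with DLA-DOB and 0.331 with DLA-79.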

How the data were processed

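RNA of 10 dog tissues was hybridised to Affymetrix Canine Version 2.0 arrays. The deposited values are log2 signals that the authors made in Partek, where probe signals were first adjusted for their GC content and sequence, then corrected for background as in RMA, quantile normalized and summarised into probesets by median polish. The authors left out 1 pancreas array before this step. Quantile normalization makes each signal relative to the rest of its array, and low signals are compressed. The number of arrays limits the precision.

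Groups were taken from the sample labels. The values were used as deposited, with 0 columns of values left unused. Symbols came from the platform annotation, of which 29254 probesets have a single symbol and 13606 have several or none. Gene order was read from RefSeq (UU_Cfam_GSD_1.0), and no coordinates are given, since that is not the assembly of the array. No member sequences are shown.

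A mean per tissue was fitted to all 39 arrays in R 4.3.3 with the package limma (3.58.1). Contrasts set each tissue against the average of the means of the other 9 tissues, and each of 45 pairs of tissues against each other. P-values were adjusted by Benjamini and Hochberg over all 42860 probesets within each contrast and called below 0.001. The scan date, a random factor in the study's model, is not in the labels and was not fitted. The array number was tested as a factor beside tissue. The fits were checked on simulated data. All member probesets were counted, the brightest over the 39 arrays stands for a gene, and others are named where they differ from it (r below 0.8 over tissue means). The second DLA-DOA probeset, the second TAP1 probeset and those of DLA-79 named beside their calls were chosen after their values were seen. Of each list of further pathway genes, up to 4 were named by the largest and smallest differences in lymph node, and the others named from a list were chosen after their values were seen. Members and lists were chosen with earlier results of these data known.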

Additional observations from a re-analysis of the deposited data

Results flagged for a closer look

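In 15 of 189 groups of 4 arrays tested (7.94%), the gap between the extreme array and its nearest neighbour exceeded Dixon's 95% critical value, where chance flags about 1 in 20 groups. Spleen 3 was apart 4 times. It was low for DLA-64 (5.03, against 8.41 to 8.94 in the other spleens), DLA-DQB1 (9.89, against 11.06 to 11.26) and DLA88 (11.41, against 12.94 to 12.97), and high for B2M (13.51, against 13.22 to 13.26). The dimmer probeset of DLA88 was low in spleen 1 (2.80, against 11.60 to 12.22) and in brain 1 (5.94, against 9.88 to 10.47).

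Lung 2 was low for DLA-DMB (7.50, against 8.25 to 8.40) and DLA-DQB1 (9.65, against 10.75 to 10.81), and jejunum 3 was low for DLA-64 (5.62, against 7.71 to 7.92). Skeletal muscle 4 was low for CD74 (5.84, against 6.40 to 6.44), lymph node 4 was high for TAP1 (11.12, against 10.60 to 10.63) and brain 3 was high for DLA-DOB (4.11, against 3.18 to 3.30). The gaps were small for DLA-DMB in lymph node 1 (9.27, against 9.17 to 9.18), DLA-DOB in jejunum 2 (3.46, against 3.51 to 3.52) and TAPBP in brain 3 (3.92, against 4.14 to 4.15).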

How the results depend on the processing

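Scaling each array on 11 housekeeping genes shifted tissues by between -0.52 in jejunum and 1.13 in pancreas, and changed the most counts of member probesets. It left 2 higher in jejunum, 0 lower in liver, 3 lower in kidney, 0 higher and 5 lower in heart, 10 lower in skeletal muscle, and 3 higher and 8 lower in pancreas, with 0 called between lymph node and spleen, 1 between lung and spleen and 0 between jejunum and liver. Of 83 called differences of standing probesets, 58 kept their call, 23 lost it and 2 changed sign, B2M in pancreas (0.17) and TAP2 in pancreas (0.27). A variance trend with intensity left 0 higher in heart. Under that trend, equal array medians, removal of probesets with tissue means below 6 (30 member probesets remained, of 16205 in all) and the array number as a replicate block, 83 of 83 kept sign and call, and the replicate block moved no count by more than 1.5 times. Arrays of the same number in different tissues deviated together at a mean r of 0.127 (-0.292 to 0.46, 171 pairs), and those of different numbers at -0.0421 (0.195 and -0.0621 over the member probesets). Equal numbers thus deviated together on average, and 101 of their 171 pairs exceeded 0.1, against 70 of 513 pairs of different numbers. The labels tie no number to a dog, so the numbers were not taken as pairs.

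Other probesets of the same gene gave 67 of 99 calls, lost 24 and reversed 8, namely 1 probeset for TAP2 in lymph node (-0.09), jejunum (-0.30), heart (0.70) and skeletal muscle (0.60), the dimmer for DLA88 in spleen (-0.42) and skeletal muscle (0.22), the dimmer for CIITA in pancreas (-0.23) and 1 for DLA-79 in pancreas (0.02). The cause was not tested.

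Leaving out each array in turn gave 31 to 32 called among tissues, 25 to 29 higher in lymph node, 19 to 23 higher in spleen, 13 to 19 higher and 0 to 1 lower in lung, 4 to 7 higher and 0 to 1 lower in jejunum, 0 to 1 higher and 0 to 1 lower in liver, 3 to 8 lower in kidney, 0 to 1 higher and 6 to 17 lower in heart, 1 to 4 higher and 16 to 23 lower in skeletal muscle, 15 to 23 lower in brain, and 0 to 1 higher and 14 to 23 lower in pancreas. It gave 2 to 4 between lymph node and spleen, 2 to 4 between lung and spleen, 10 to 17 between jejunum and lymph node, 5 to 12 between jejunum and spleen, 4 to 4 between jejunum and liver, 577 to 642 of the paired tests, and 0 to 0 for the array number, for lower in lymph node and spleen and for higher in kidney and brain. Of 3237 called differences in these fits, 3166 kept their call, 71 lost it and 0 reversed. The jejunum pairs were chosen after seeing the data.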
